A study of Mus musculus with 4 samples.

Results

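B16-RIIL, a mouse melanoma line grown out of lung metastases, was compared with B16, the line it came from. The comparison uses 2 of the 4 labelled arrays of the series, the B16-RIIL array and the B16 array, chosen by their sample labels, and takes in every non-control probe. B16 is a melanoma line of the C57BL6 strain. B16F1 cells were injected into the back skin of C57BL6 mice, and melanoma cells cultured from lymph node metastases gave the line B16-RI. B16-RI cells were injected into skin again, and this second round gave B16-RII from lymph node metastases and B16-RIIL from lung metastases. All lines were grown in DMEM with 20% fetal bovine serum, glutamine and an antibiotic-antimycotic solution, so the arrays hold RNA of cultured cells and not of tumours. Each passaged line is a single isolate, and the RNA of each line was pooled from 2 passage numbers. The study describes duplicates, but the values of second arrays carry no sample label that ties them to a line's sample and were not used. With the 1 labelled array per line used here, no difference below has a replicate check and none was tested, and passage in the mouse, time in culture and the particular isolate cannot be told apart.

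Melanoma cells descend from the neural crest, the embryonic source of melanocytes, Schwann cells and glia, and they keep much of the melanocyte programme. Cells that settle in a distant organ must leave the skin tumour, survive transport in lymph or blood, and grow in a tissue with other matrix, oxygen supply and immune cells. Genes often discussed in this setting are secreted matrix proteins such as osteopontin, growth factor receptors, chemokines, and the enzymes of sugar use and detoxification. These roles are given as background and were not measured here.

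Each probe gave a raw and a normalized signal, and it was counted as detected when its signal-to-noise ratio (S/N) was at least 3 and its flag at most 5000. Of 33012 probes, between 13872 and 14855 were detected on each of the 4 arrays. The names in the file led to 14683 genes, each represented by its brightest probe. Of these, 7494 genes were detected on both arrays, 911 on B16-RIIL only and 669 on B16 only, and these 9074 genes are the ones described. Differences are log2 values of B16-RIIL minus B16, centred on the median of each of the 2 sets of probes that had been normalized with different constants, so a fold below can differ from the ratio of the normalized signals printed beside it. Where a gene was not detected on an array, its value there was replaced by the lowest signal detected on that array where it lay under it, and the difference is written as at least N-fold. An undetected signal above that lowest one was kept as read. Such a bound allows for the undetected side only in this way, so it is no strict minimum. It holds for the centring used, and another scaling can give a smaller fold.

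At a limit of 2-fold, 648 genes (7.14%) were higher in B16-RIIL and 623 (6.87%) were lower. Most of them were dim on the other array, since 477 of the higher genes were detected on B16-RIIL only and 462 of the lower genes on B16 only. Among the genes detected on both arrays, 171 (2.28%) were higher and 161 (2.15%) were lower. At 4-fold there were 180 higher and 190 lower genes, of which 21 and 6 were detected on both arrays. At 8-fold there were 41 in each direction. Higher genes made up 51% of the calls, while the deposited values without centring gave 66.6% and median scaling of the raw signal 68.6%, and these scalings placed the median gene detected on both arrays 0.25 and 0.28 log2 above B16 in place of 0.04. Without a detection filter the share was 36.2%. Under every scaling tried, 548 of the higher and 495 of the lower genes were still past 2-fold. Differences tracked brightness, with 44% of genes past 2-fold in the dimmest of 4 equal bins of mean signal and 1.28% in the brightest. The plot of both arrays shows the cloud widening towards low signal.

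**Figure D1:**
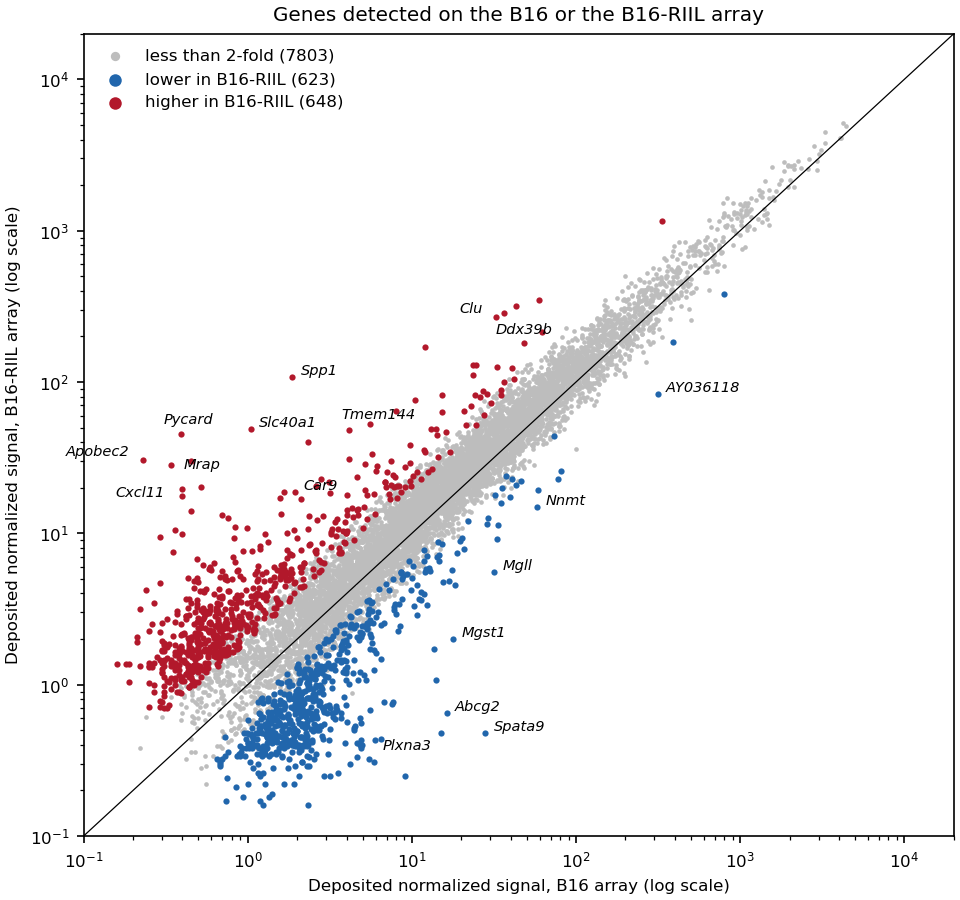
Deposited normalized signal of each of the 9074 genes on the B16 array (horizontal, log scale) and the B16-RIIL array (vertical, log scale), with the line of equal signal. Red points are the 648 genes at least 2-fold higher and blue points the 623 at least 2-fold lower after centring, and most of them lie at low signal on the other array.

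The spread of a difference was read from genes with several probes, which share the RNA and the array and are therefore no replicates. For 559 genes with at least 2 probes detected on both arrays, the differences of the 2 brightest probes lay a median of 0.31 log2 apart, with an SD of 0.53, or 0.38 per probe. By comparison, the SD of the difference over all genes detected on both arrays was 0.48. Of the 559 genes, 12 had a probe that was higher and 0 had all probes higher, while 21 had a probe that was lower and 3 had all probes lower. With probes detected on either array taken in, 10 higher genes had a second probe and 6 of them had another probe that was higher as well, and of 19 such lower genes 8 had another probe that was lower. Among the genes whose detected probes were all past 2-fold were, on the higher side, Spp1, Apobec2, Saa3, Jph4, Svil and Zfp458, and on the lower side Ticrr, Gng2, Sbf2, Peli3, Pigb and Epop. These names were chosen after their values were seen. The 2-fold limit, 1 on the log2 scale, is thus less than 2 SDs of the difference between 2 probes, while a call rests on 1 probe, with an SD of 0.38. Both SDs come from genes detected on both arrays and do not cover genes detected on 1 array. Calls near the limit remain uncertain.

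**Figure D2:**
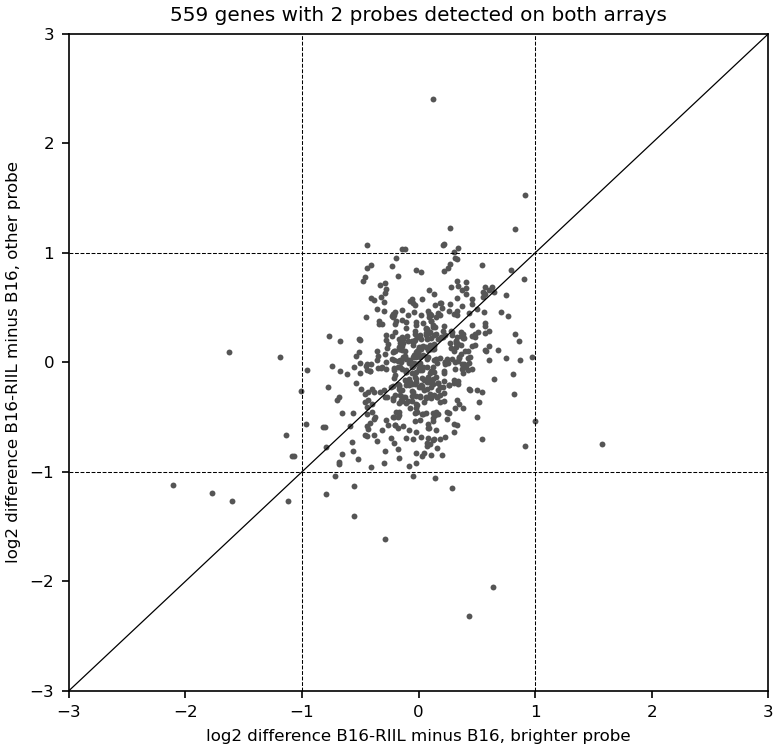
Log2 difference of B16-RIIL minus B16 for 559 genes with 2 probes detected on both arrays, the brighter probe on the horizontal axis and the other probe on the vertical axis, with dashed lines at 2-fold. Most points lie within 2-fold on both axes, and few genes are past 2-fold by both of their probes.

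The B16-RIIL array held the RNA of melanocyte-like cells. Of 9 melanocyte markers 6 were on the array, and all 6 were detected on both arrays and lay within 2-fold, with a median difference of -0.07. Dct, an enzyme of melanin synthesis, had a normalized signal of 2041 on B16 and 2684 on B16-RIIL, and Tyrp1, an enzyme of the same path, had 2628 and 2966. Of 14 lung epithelium markers on the array, 5 were detected on B16-RIIL and 6 on B16, 0 were higher and 2 were lower, namely Sftpb and Aqp5. Foxj1, Epcam, Krt8 and Cdh1 were detected on both arrays with differences between -0.22 and 0.01, and Scgb1a1, a club cell gene, on B16-RIIL only with 0.52, all with S/N of at most 6.7. Sftpc and Sftpd, surfactant genes of alveolar cells, and Nkx2-1, a lung transcription factor, were not detected on either array, with S/N of at most 0.7 on B16-RIIL. Of 18 macrophage and neutrophil markers 1 was detected on B16-RIIL, Lyz2, and 3 on B16. Adgre1, Cd68 and Ptprc, the pan-leukocyte gene, were not detected on either array. Of 12 fibroblast markers 4 were detected on B16-RIIL and 5 on B16, with 0 higher and Postn and Fbln1 lower. Of 15 endothelial markers 4 were detected on B16-RIIL and 2 on B16, and Plvap was higher by 1.36 while Cdh5 was not detected. Of 9 keratinocyte markers only Krt14 was detected, lower by 1.17 on the log2 scale, and of 6 erythroid markers only Epor was, with a difference of -0.16. Of 15 lymphocyte markers 8 were detected on B16-RIIL and 6 on B16, with 1 higher, Cd8b1 with S/N of 6.6, and 1 lower.

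Among genes detected on both arrays, the largest increase was that of Tmem144, a transmembrane protein, with normalized signals of 4.15 for B16, 58.4 for B16-RI, 80.5 for B16-RII and 48.3 for B16-RIIL. This was 11.7-fold in B16-RIIL, and all 3 passaged lines were far above B16. Hapln1, the link protein that joins hyaluronan to proteoglycans, had 4.14, 67.1, 44.2 and 31 on the same arrays in that sequence and was 7.54-fold higher in B16-RIIL. It too was above B16 on all 3 passaged lines. Clu, the secreted chaperone clusterin, had 32.7, 54.3, 122 and 270 and was 6.05-fold higher. Car9, a carbonic anhydrase of the cell surface known as a hypoxia marker, had 1.93, 2.62, 10.6 and 18.7 and was 9.78-fold higher. Clu and Car9 were highest on B16-RIIL among the 4 arrays. Slc44a3, a choline transporter-like protein, was 9.53-fold higher at a signal of 52.9 on B16-RIIL and 55 on B16-RII. Tmc4, a transmembrane channel-like protein, was 8.16-fold higher, and Gsta4, a glutathione transferase that removes products of lipid peroxidation, was 5.82-fold higher. Tinagl1, a matrix protein, was 5.11-fold higher.

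A further 4 of the 15 most increased genes are widely used genes of basic cell functions, and for each of them B16 stood alone at a low signal. Ddx39b, an RNA helicase of mRNA export, had 36.5 on B16, 320 on B16-RI, 323 on B16-RII and 285 on B16-RIIL. Etf1, the factor that ends translation, had 23.6, 142, 159 and 130. Csnk1e, a casein kinase, had 43.3, 224, 268 and 317. Akt1s1, an inhibitor subunit of the mTOR kinase complex, had 10.5, 86.9, 87.4 and 75.5. Each has 1 probe on the array, so no second probe could be set beside these values. Osgin1, a gene of the oxidative stress response, had 7.98 on B16 and 58.1, 68.6 and 64.3 on the passaged lines. Tdrp, a protein named for testis development, was 5.4-fold higher at low signal. Osgin1 and Tdrp lie on chromosome 8, where 46 of 497 genes (9.26%) were higher, 22 (4.43%) were lower and the median difference of the 434 genes on both arrays was 0.39. This shift is far smaller than their own differences of 2.56 and 2.43. Plvap, Nqo1, Col4a1, Ccl25 and Jund also lie on chromosome 8, and their differences of 1.36, 1.35, 1.13, 1.17 and 1.03 pass the 2-fold limit by less than this median.

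**Figure D3:**
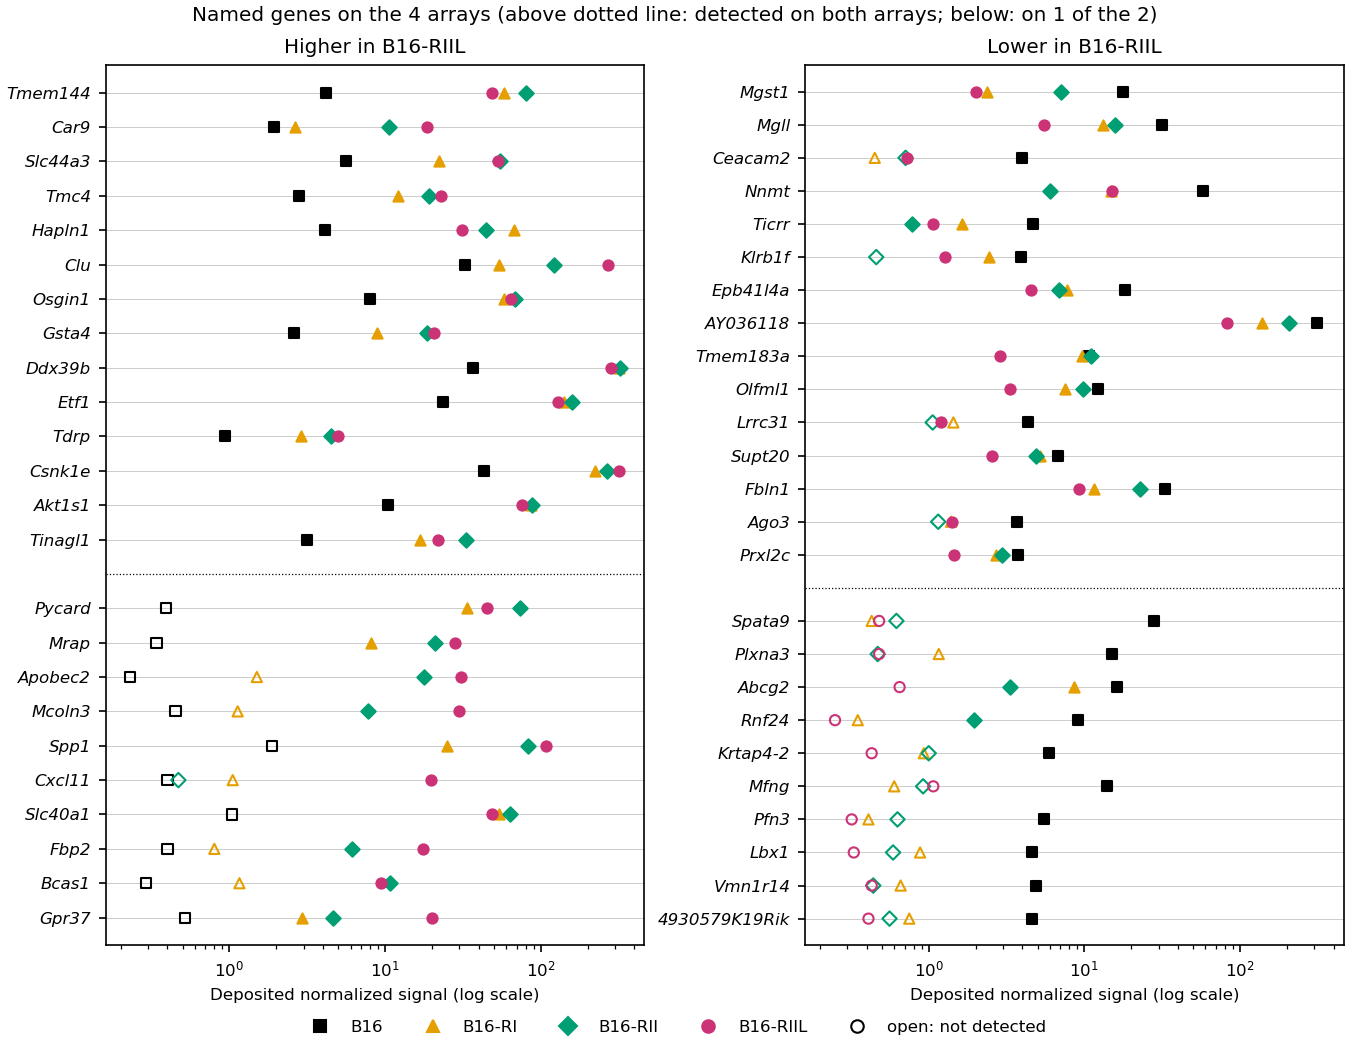
Deposited normalized signal (horizontal, log scale) of the named genes that are described on the 4 arrays, genes higher in B16-RIIL on the left and lower on the right. Squares are B16, triangles B16-RI, diamonds B16-RII and circles B16-RIIL, and open symbols are signals that were not detected. For Tmem144, Pycard and Slc40a1 the passaged lines lie together above B16, while Cxcl11 is detected on B16-RIIL alone.

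The genes that B16 lacked and B16-RIIL showed with S/N of at least 10 numbered 80. Pycard, the ASC adaptor of the inflammasome, led them with a normalized signal of 0.39 on B16, where it was not detected, 33.6 on B16-RI, 73.5 on B16-RII and 45.1 on B16-RIIL, at least 116-fold higher. Slc40a1, the iron exporter ferroportin, had 1.04 on B16, not detected, and 54.3, 63.6 and 48.8 on the passaged lines, at least 34.4-fold higher. Both were already detected on B16-RI. Mrap, an accessory protein that brings the ACTH receptor to the cell surface, had 0.34, 8.08, 20.8 and 28.3 and was at least 83.9-fold higher. Spp1, the secreted phosphoprotein osteopontin that the study followed, had 1.87, 25.1, 82.8 and 108 and was at least 42.4-fold higher, and its second probe was at least 18.2-fold higher. Both stood highest on B16-RIIL.

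For 4 other genes of this kind the brightest probe was detected on the second round arrays only. Apobec2, a member of the APOBEC family of cytidine deaminases, was undetected on B16 and B16-RI by its brightest probe, and had 17.7 on B16-RII and 30.6 on B16-RIIL, at least 62.4-fold above B16. Mcoln3, a mucolipin channel of endosomes, had 7.73 on B16-RII and 30 on B16-RIIL and was at least 48.8-fold higher. Fbp2, a fructose bisphosphatase of gluconeogenesis, had 6.17 and 17.6 and was at least 32.2-fold higher. Bcas1, a gene amplified in breast cancer, had 10.7 and 9.41 and was at least 30.6-fold higher. Gpr37, an orphan receptor related to the endothelin receptors, was detected from B16-RI on with 2.92, then 4.64 on B16-RII and 20.1 on B16-RIIL, at least 28.4-fold above B16. Cxcl11, a chemokine that binds the receptor CXCR3, stood apart from these, since it was undetected on B16, B16-RI and B16-RII with S/N of at most 2.2 and had 19.7 on B16-RIIL with S/N of 43, at least 36.1-fold above B16. It was the only gene of these 10 that was detected on B16-RIIL alone.

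Among genes detected on both arrays, Mgst1, a microsomal glutathione transferase, differed most downward, with normalized signals of 17.8 for B16, 2.37 for B16-RI, 7.1 for B16-RII and 2.01 for B16-RIIL, 8.76-fold lower in B16-RIIL. Mgll, the lipase that releases fatty acids from monoacylglycerol, had 31.6, 13.1, 15.7 and 5.51 and was 7.81-fold lower. Nnmt, which methylates nicotinamide, had 58.2, 14.8, 6.05 and 15 and was 5.31-fold lower. Here all passaged lines lay under B16. Ceacam2, a cell adhesion molecule, was 7.43-fold lower, and Fbln1, the matrix protein fibulin, was 3.55-fold lower with 33 on B16 and 9.23 on B16-RIIL. Ticrr, which helps to start DNA replication, was 4.32-fold lower by its brighter probe and 2.17-fold lower by the other. Tmem183a, a transmembrane protein, was near its B16 signal of 10.7 in B16-RI and B16-RII and at 2.88 in B16-RIIL, 3.68-fold lower. Olfml1, an olfactomedin-like secreted protein, was also lowest on B16-RIIL, with 12.3, 7.49, 9.87 and 3.35. The others of the 15 were AY036118, Epb41l4a, Klrb1f, Lrrc31, Supt20, Ago3 and Prxl2c, between 3.5-fold and 4.18-fold lower.

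Of the genes lost from detection, 29 had S/N of at least 10 on B16. Spata9, a gene named for spermatogenesis, had 27.9 on B16 and at most 0.62 on the passaged lines, at least 79.1-fold lower in B16-RIIL. Plxna3, a receptor for semaphorins, had 15 on B16 and at most 1.16 on the others, at least 42.5-fold lower, and Mfng, a glycosyltransferase that modifies Notch, had 14 and at most 1.07, at least 17.8-fold lower. Under the scaling least favourable to each, the log2 differences of Spata9 and Plxna3 were -5.79 and -4.92 in place of -6.31 and -5.41. All 3 genes were undetected from B16-RI on. Abcg2, a drug efflux pump of the ABC family, had 16.3 on B16, 8.63 on B16-RI, 3.33 on B16-RII and 0.65 on B16-RIIL, where it was not detected, at least 34.1-fold lower, a log2 difference of -5.09 that was -4.59 under another scaling. Rnf24, a RING finger protein, had 9.07 on B16 and 0.25 on B16-RIIL, at least 28.1-fold lower. Krtap4-2, Pfn3, Lbx1, Vmn1r14 and 4930579K19Rik were between at least 15.4-fold and at least 18.8-fold lower. Krtap4-2, Vmn1r14, Klrb1f and Ceacam2 have close relatives, and since probe sequences were not used here, which relative their probes report is uncertain.

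To describe functions, 34 lists of genes were set beside the share of all 9074 genes that was higher (7.14%) or lower (6.87%) and their median of 0.04. A list's median takes in members that entered through 1 of the arrays. A single gene moves the share of a short list by much, so counts and names are given. Some members past 2-fold here were within it under another scaling, among them Oca2, Lyst, S100b, Mbp, Pmp22, Tgfbi, Col4a1, Mmp11, Mmp13, Itga4, Cd9, Ezr, Ccl25, Ifih1, H2-D1, Vegfa, Fgfr3, Jund, Nf1, Ephb4, Efnb3, Sema4b, Cdkn1b, Pfkfb4, Slc16a3 and Cpt1a.

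**Figure D4:**
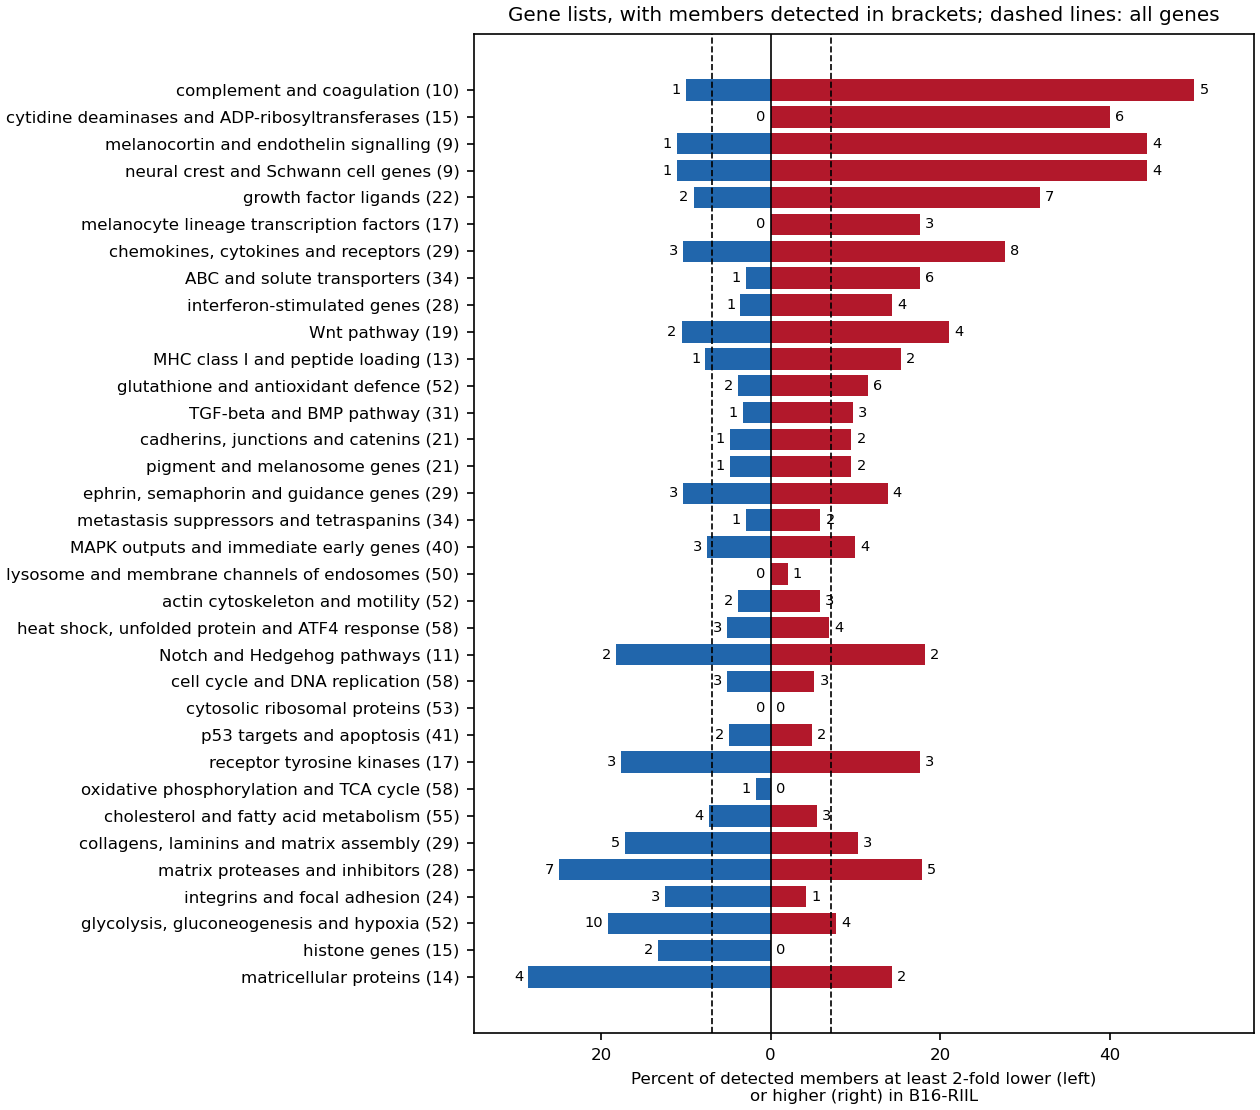
Percent of the detected members of each of 34 gene lists that were at least 2-fold higher (red, right) or lower (blue, left) in B16-RIIL than in B16, with the number of such genes at the end of each bar and the number of detected members in brackets. Dashed lines mark the same percents over all 9074 genes, 7.14 and 6.87.

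Most pigment genes lay within 2-fold. Of 21 pigment and melanosome genes 2 were higher and 1 was lower, with a median of -0.05 that reached 0.26 under another scaling. The lower gene was Oca2, a melanosome membrane protein, with 15.2 on B16 and 8.51 on B16-RIIL, 2.44-fold. The higher ones were Slc7a11, the cystine transporter, at least 6.66-fold with 0.87 on B16 and 5.75 on B16-RIIL, and Lyst, at least 2.23-fold near the detection limit. Of 17 melanocyte lineage transcription factors 3 were higher and 0 lower, with a median of 0.50 that lay between 0.48 and 0.93 over the scalings and was 0.47 over the 14 members detected on both arrays. Id1, an inhibitor of differentiation factors, was 3.71-fold higher, Tfap2b, a neural crest factor, at least 4.17-fold, and Pou3f2, known as BRN2 in melanoma, at least 2.01-fold. Mitf, the master regulator of melanocytes, had a difference of -0.54 and was not called. Of 9 neural crest and Schwann cell genes 4 were higher and 1 was lower. Ngfr, the low-affinity neurotrophin receptor of neural crest cells, was not detected on the other 3 arrays and had 4.34 on B16-RIIL, at least 9.3-fold. S100b, a melanoma and glial marker, had 30.2, 38.6, 65.5 and 72.8 on B16, B16-RI, B16-RII and B16-RIIL and was 2.43-fold higher. Mbp, a myelin protein, was 2.49-fold higher, and Gfap, a glial filament, at least 3.44-fold, while Pmp22, another myelin protein, was 2-fold lower. S100b and Mbp were just under 2-fold in some scalings, with lowest differences of 0.96 and 0.98.

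Of 9 genes of melanocortin and endothelin signalling 4 were higher, 1 was lower and the median was 0.83, or 0.66 over the 3 members detected on both arrays, and up to 1.16 under another scaling. Beside Mrap and Gpr37 these were Ece1, the enzyme that activates endothelin, at least 4.66-fold, and Kit, the receptor for stem cell factor that melanocytes need, with 5.16 on B16, 4.8 on B16-RI, 9.18 on B16-RII and 19.3 on B16-RIIL, 2.74-fold. The lower gene was Ednra, an endothelin receptor, with 4.81 on B16 and no detection on the passaged lines, at least 10.9-fold lower. Mc1r, the melanocortin receptor of melanocytes, had 27 on B16 and 58.2 on B16-RIIL with a difference of 0.66, under the limit here and past it with 1.16 under another scaling.

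Secreted matrix genes went both ways. Of 14 matricellular proteins, which modulate cells rather than build fibres, 2 were higher and 4 were lower, with a median of -0.12 that reached 0.13 under another scaling. Beside Spp1 the higher gene was Sparcl1, with 23.7 on B16, 53.7 on B16-RI, 110 on B16-RII and 112 on B16-RIIL, 4.74-fold. Fbln1, Postn, Tgfbi and Spock3 were lower, the last 3 from B16 signals with S/N under 4. Of 29 genes of collagens, laminins and matrix assembly 3 were higher and 5 lower, with a median of 0.05 that reached -0.02 under another scaling. Pcolce, an enhancer of collagen processing, was 3.05-fold higher with 22.9 on B16 and 69.2 on B16-RIIL. Rcn3, a collagen-related protein of the endoplasmic reticulum, was at least 13.2-fold higher and was detected on all passaged lines. Col4a1, on chromosome 8, was 2.19-fold higher. Loxl2, a collagen crosslinking enzyme, had 4.43 on B16 and was undetected on the passaged lines, at least 12.1-fold lower, and Col6a2 was at least 6.66-fold lower. Nid2, a basement membrane linker, had 28.9 on B16 and 12.6 on B16-RIIL, 2.28-fold lower, and Col7a1 and Lamb3 were lower from a dim B16 signal.

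Of 28 matrix proteases and inhibitors 5 were higher and 7 lower, with a median of -0.17 that lay between -0.41 and -0.13 over the scalings. Adamts5, an aggrecanase, was at least 10.1-fold higher, with 0.49 on B16 and 6.86, 6.16 and 6.72 on B16-RI, B16-RII and B16-RIIL. Among the others, Mmp23, Mmp16 and Spint2 were at least 3.26-fold to 4.99-fold higher, with S/N of at most 4.6 on B16-RIIL and no detection on the other 3 arrays. Serpine2, an inhibitor of serine proteases, was at least 11.1-fold lower, with 5.56 on B16 and no detection on the passaged lines. Mmp24 was 3.1-fold lower and Adamts4, the other aggrecanase, 2.63-fold lower, both with S/N over 8 on all arrays. Mmp17 and Plg were lower to below detection, and Mmp11 and Mmp13 were just past 2-fold. Of 24 integrin and focal adhesion genes 1 was higher and 3 were lower, with a median of -0.05 that lay between -0.13 and 0.25 over the scalings. These were Itgb2, at least 5.56-fold higher, and Itga4, 2.71-fold lower, Itgb5, at least 4.98-fold lower, and the tetraspanin Cd9, 2.46-fold lower. The B16 signal of Itgb5 had S/N of 3.0, at the detection limit. Cd44, a hyaluronan and osteopontin receptor, stood at 70.8 and 92.6 with a difference of -0.06, and Itga9 at 3.07 and 5.87 with 0.95, up to 1.00 under another scaling, and neither was called. Of 21 genes of cadherins and junctions 2 were higher, Gja1 and Nectin2, and 1 was lower, Cdh13, an atypical cadherin that was at least 21-fold lower. Of 52 genes of the actin cytoskeleton 3 were higher, Des, Vil1 and Ezr, and 2 were lower, Myh10, a non-muscle myosin, at least 8.22-fold, and Tiam1, an activator of Rac, at least 5.41-fold. Myh10 and Tiam1 had S/N of only 4.1 and 3.5 on B16.

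Of 29 detected chemokines, cytokines and receptors 8 were higher and 3 lower, with a median of 0.12 that reached 0.49 under another scaling. Besides Cxcl11, Ccl5, a chemokine for T cells, had 5.35 on B16, 3.89 on B16-RI, 8 on B16-RII and 18 on B16-RIIL, 3.38-fold higher in B16-RIIL. Cxcl10, another ligand of CXCR3, had 61.6, 254, 289 and 213 and was 2.54-fold higher, so B16-RIIL was not the highest here. Ccl25, on chromosome 8, was 2.24-fold higher. Ccr2, Il33, Cxcl12 and Ackr3 were higher from below detection on B16, with S/N of at most 5.1 on B16-RIIL. Ccr9, the receptor of Ccl25, was at least 5.81-fold lower, and Il12a and Csf3 were lower as well. Ccr9, Il12a and Csf3 all had dim B16 signals with S/N of at most 3.6. Of 28 interferon-stimulated genes 4 were higher and 1 was lower. Ifi47, a GTPase induced by interferon, was at least 6.28-fold higher, with 0.81 on B16 and 3.98, 6.07 and 6.94 on the passaged lines. Ifit2 was 2.62-fold higher, with 4, 7.55, 11.4 and 10.4, and Igtp and Isg20 were at least 2.54-fold and 2.09-fold higher, with S/N of 3.3 and 8.6. The median of the list was 0.14, or -0.03 under another scaling, and -0.18 over the 21 members detected on both arrays. Ifih1, a sensor of viral RNA, was at least 2-fold lower. Of 13 genes of MHC class I and peptide loading 2 were higher, H2-D1 by 2.34-fold and Tap2, the peptide transporter, by at least 3.09-fold, and H2-M3 was at least 2.32-fold lower. H2-D1 has close relatives on the array, and which of them its probe reports is uncertain. Of 10 complement and coagulation genes 5 were higher and 1 was lower, with a median of 1.08, or 0.44 over the 6 members detected on both arrays. Cfi, the complement inhibitor factor I, was at least 21.5-fold higher, with 0.35 on B16 and 2.79, 7.4 and 7.48 on the passaged lines. Pros1, the anticoagulant protein S, had 7.88, 12.7, 26.3 and 23.6 and was 3.02-fold higher. Clu is counted here again, F2rl1 and Thbd were higher near the detection limit, and C1qa was lower. Saa3, an acute phase protein, was named above for its 2 probes, at least 5.53-fold and 6.11-fold higher.

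The core of the interferon-stimulated response element, GAAA, any 2 bases and GAAA again, was searched on both strands in the 250 bases before each RefSeq gene start. It occurred in 2.98% of all promoter entries, in 7 of the 21 detected interferon-stimulated genes with an entry, and in 1 of the 4 higher ones, Igtp. Cxcl10 also holds it. These promoters are shown because their genes were higher in B16-RIIL, and the match is a description of letters, not of a bound site. The sequences are those of RefSeq on GRCm38.p6, read along the strand of the gene, with the match in capitals. Cxcl10 lies at chr5:92348890-92349139 on the minus strand and Igtp at chr11:58199306-58199555 on the plus strand.
Cxcl10: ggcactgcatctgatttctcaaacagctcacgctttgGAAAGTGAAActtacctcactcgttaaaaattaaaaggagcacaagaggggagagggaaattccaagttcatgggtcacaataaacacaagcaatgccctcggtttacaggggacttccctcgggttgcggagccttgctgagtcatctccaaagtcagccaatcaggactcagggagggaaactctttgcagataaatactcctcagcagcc
Igtp: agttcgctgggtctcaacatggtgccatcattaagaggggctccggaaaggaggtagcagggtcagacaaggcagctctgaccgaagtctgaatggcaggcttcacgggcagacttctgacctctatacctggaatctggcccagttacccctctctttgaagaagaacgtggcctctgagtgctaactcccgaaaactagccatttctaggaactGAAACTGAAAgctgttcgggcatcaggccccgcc

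Glycolysis and hypoxia genes leaned to lower values, with a few large exceptions. Of 52 detected genes 10 (19.2%) were lower and 4 (7.69%) were higher, with a median of -0.23 that lay between -0.23 and 0.01 over the scalings, and 7 of the lower genes stayed past 2-fold in all of them. Slc2a6, a sugar transporter, had 16.7 on B16, 3.88 on B16-RI, 5.91 on B16-RII and 4.84 on B16-RIIL, 3.43-fold lower. Pfkp, the platelet form of phosphofructokinase, had 35, 38.9, 30 and 15.9 and was 2.18-fold lower. Pklr, a pyruvate kinase, had 8.75 and 3.66 and was 2.37-fold lower. Pfkp and Pklr were lowest on B16-RIIL. Tpi1, the triose phosphate isomerase, was 3.1-fold lower by its brightest probe, while its dimmer probe differed by 0.09. Vegfa, the vascular growth factor, was 2.1-fold lower by its brightest probe with a difference of -0.86 by the other, and B16-RI with 2.39 was below B16-RIIL with 5.59. Pgam2, Pfkfb4 and Egln3 were lower to below detection from B16 signals with S/N under 5, and Slc16a3, a lactate transporter, was 2.02-fold lower. The other genes were within 2-fold, with Ldha at 0.12, Pgk1 at -0.26, Aldoa at -0.44, Eno1 at -0.67 and Pdk1 at -0.95, the last past 2-fold with -1.27 under another scaling. Beside Car9 and Fbp2 the higher genes were Slc2a4, the insulin-regulated glucose transporter, with 1.8, 8.44, 10.1 and 5.03 on B16, B16-RI, B16-RII and B16-RIIL, 2.82-fold, and Pygl, the liver glycogen phosphorylase, at least 3.15-fold.

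**Figure D5:**
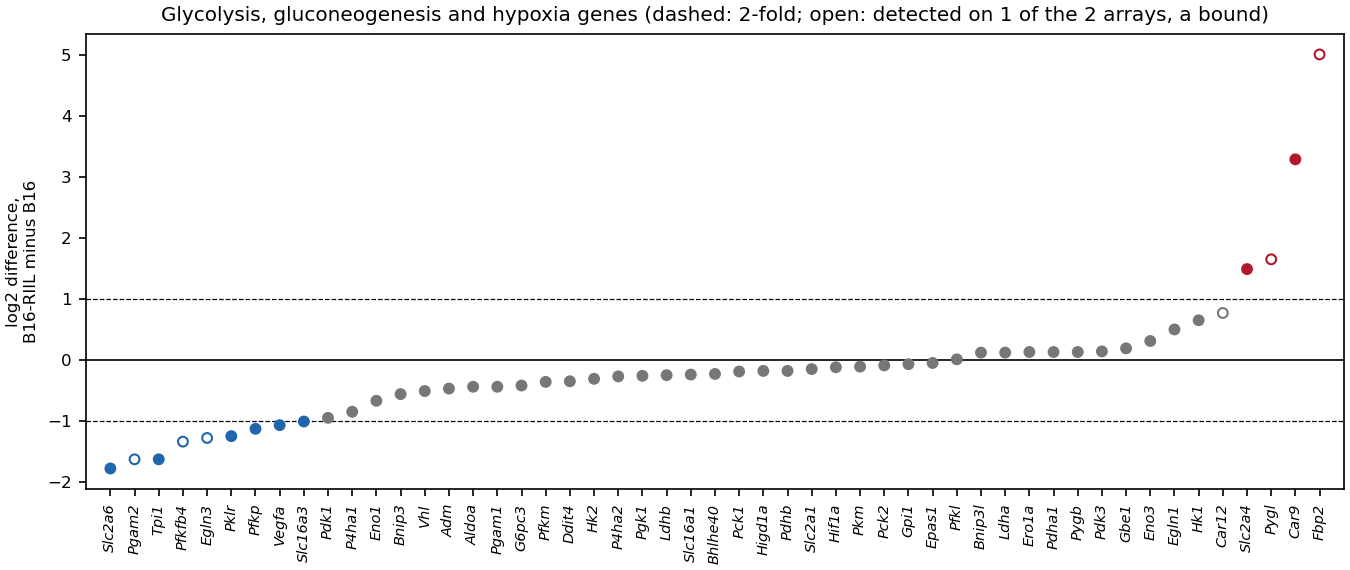
Log2 difference of B16-RIIL minus B16 (vertical) for the detected genes of the glycolysis, gluconeogenesis and hypoxia list except 1 lower gene, ordered from lowest to highest, with dashed lines at 2-fold. Blue genes (9) were lower and red genes (4) higher, open symbols are bounds, and Car9 and Fbp2 stand far above the rest.

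The hypoxia response core, ACGTG, was searched in the same way. It occurred in 16.6% of all promoter entries, in 25.6% of the 7330 genes described here that have an entry, and in 26 of the 47 members of this list with an entry (55.3%). It was present in 3 of 3 higher members with an entry, Car9, Fbp2 and Pygl, and in 3 of 9 lower members, Egln3, Slc16a3 and Vegfa. Both directions thus occurred among genes with these letters, which is why a pair from each side is shown. Sequence, build and strand are given as before, at chr4:43506776-43507025 on the plus strand for Car9, chr13:62858401-62858650 on the minus strand for Fbp2, chr11:120948817-120949066 on the plus strand for Slc16a3 and chr12:54203875-54204124 on the minus strand for Egln3. Capitals mark the match, which in Fbp2 reads the same on both strands.
Car9: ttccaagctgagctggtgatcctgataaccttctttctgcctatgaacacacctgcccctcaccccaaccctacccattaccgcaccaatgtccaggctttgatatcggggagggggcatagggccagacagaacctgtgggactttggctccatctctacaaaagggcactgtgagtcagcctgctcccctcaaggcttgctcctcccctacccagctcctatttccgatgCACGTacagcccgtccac
Fbp2: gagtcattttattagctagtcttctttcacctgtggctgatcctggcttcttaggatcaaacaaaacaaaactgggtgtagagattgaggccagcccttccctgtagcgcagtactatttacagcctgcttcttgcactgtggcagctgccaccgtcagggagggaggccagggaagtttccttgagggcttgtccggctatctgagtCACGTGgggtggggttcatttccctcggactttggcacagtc
Slc16a3: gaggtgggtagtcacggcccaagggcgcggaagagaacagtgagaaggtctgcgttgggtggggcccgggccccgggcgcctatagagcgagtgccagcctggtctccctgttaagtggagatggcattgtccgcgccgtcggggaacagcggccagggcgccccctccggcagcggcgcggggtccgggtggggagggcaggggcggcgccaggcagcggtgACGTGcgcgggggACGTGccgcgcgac
Egln3: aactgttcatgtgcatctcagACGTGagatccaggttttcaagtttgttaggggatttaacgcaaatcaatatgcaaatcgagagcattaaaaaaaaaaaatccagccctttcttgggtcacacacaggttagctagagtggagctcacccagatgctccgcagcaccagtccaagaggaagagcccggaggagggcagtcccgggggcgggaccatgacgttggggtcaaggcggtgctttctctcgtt

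Of 52 glutathione and antioxidant genes 6 were higher and 2 lower, with a median of 0.18, or 0.05 over the 46 members detected on both arrays. Besides Gsta4, Gstk1 was 2.33-fold higher with 6.88 on B16 and 27.6, 23.9 and 21.9 on the passaged lines, and Nqo1, a quinone reductase on chromosome 8, was 2.54-fold higher with 3.97, 6.21, 7.28 and 10. Sod3, the secreted superoxide dismutase, was at least 4.18-fold higher, Gstt1 2.95-fold and Aldh1a1 at least 2.87-fold. Besides Mgst1 the lower gene was Gpx3, the secreted glutathione peroxidase, with 7.72 on B16 and 0.77 on B16-RIIL, at least 13.7-fold lower. Of 55 genes of cholesterol and fatty acid metabolism 3 were higher and 4 lower, with a median of 0.00. Fabp3, a fatty acid binding protein, was at least 10.3-fold higher, and Cpt1a was higher near the detection limit. Dgat2, which makes triglycerides, was 2.48-fold lower, and Acsl4, Nr1h3 and Plin4 were lower to below detection. Of 58 genes of oxidative phosphorylation and the TCA cycle 0 were higher and 1 was lower, Ndufa4, with a median of -0.06 that reached 0.11 under another scaling.

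Of 34 ABC and solute transporters 6 were higher and 1, Abcg2, was lower. Beside Slc40a1 and Slc44a3 stood Slc44a4, another choline transporter-like protein, at least 22.8-fold higher with 0.45 on B16 and 12.8, 14.1 and 14 on the passaged lines. Slc44a5, Abca3 and Abcb1b, a multidrug pump, were at least 4.58-fold, 3.59-fold and 2.39-fold higher at S/N of at most 6.5. Of 15 cytidine deaminases and ADP-ribosyltransferases 6 were higher and 0 lower, with a median of 0.27 that lay between 0.27 and 0.68 over the scalings and was 0.21 over the 10 members detected on both arrays. Art3, a surface ADP-ribosyltransferase, was 4.57-fold higher with 6.15 on B16 and 32.1, 47.4 and 27.9 on the passaged lines, and Art4 was at least 7.23-fold higher, so B16-RII was above B16-RIIL for both. Apobec3, an antiviral deaminase, was at least 2.55-fold higher, Parp8 2.46-fold and Art2a at least 2.42-fold. Of 50 lysosome genes 1 was higher, Mcoln3, and 0 were lower.

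Many secreted growth factors act through receptor tyrosine kinases and the MAPK cascade, whose outputs are read as immediate early genes and phosphatases. Of 22 growth factor ligands and binding proteins 7 were higher and 2 lower. All of the higher ones but Btc, an EGF family ligand that was 2.48-fold higher with 2.71 on B16 and 6.68 on B16-RIIL, were undetected on B16 and had S/N of at most 5.4 on B16-RIIL, namely Egf, Fgf1, Fgf2, Pdgfd, Igfbp7 and Apln. Igf2 and Vegfa were lower. Of 17 receptor tyrosine kinases 3 were higher and 3 lower. Met, the receptor of hepatocyte growth factor, had 3.42 on B16, 3.38 on B16-RI, 8.92 on B16-RII and 11.9 on B16-RIIL, 2.54-fold higher, in the same order as Kit, and Ret was at least 2.46-fold higher. Fgfr3, Ros1 and Musk were lower from B16 signals of at most 2.34. Of 40 MAPK outputs and immediate early genes 4 were higher and 3 lower. Dusp4, a phosphatase of ERK on chromosome 8, had 33.1, 70.5, 79.4 and 126 and was 2.78-fold higher, and Nr4a2, an orphan nuclear receptor, was at least 5.61-fold higher. Egr3 was at least 2.79-fold and Jund, on chromosome 8, 2.05-fold higher, Dusp10 was 2.98-fold and Nf1 at least 2.05-fold lower, and Atf3, a stress factor, had 12.7 on B16 and 5.87 on B16-RIIL, 2.15-fold lower.

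Of 19 Wnt pathway genes 4 were higher and 2 lower, with a median of 0.29. Wnt6 was 2.94-fold higher with 5.1 on B16 and 11.4, 20.8 and 14.9 on the passaged lines, and Fzd6, a Wnt receptor, was 2.6-fold higher. Lgr5, the R-spondin receptor known from stem cells, was at least 6.06-fold higher with 0.93 on B16 and 7.68 on B16-RIIL, and Rspo1, an R-spondin, at least 5.32-fold. Rnf43, the ubiquitin ligase that R-spondins restrain, was at least 20.1-fold lower with 6.49 on B16 and at most 0.44 on the passaged lines, and Apc at least 2.98-fold lower. Of 31 TGF-beta and BMP genes 3 were higher, Id1, Fstl3 by 3.89-fold and Smad4 by at least 3.2-fold, and Fstl1 was at least 4.4-fold lower. Of 11 Notch and Hedgehog genes 2 were higher, Rbpj, the DNA-binding partner of Notch, by 2.3-fold and Hey1, a Notch target, by at least 3.55-fold, and 2 were lower, Mfng and Hes1, the last by at least 4.91-fold. Of 29 ephrin, semaphorin and guidance genes 4 were higher, Dcc, Ephb2, Ephb4 and Sema4a, at 2.08-fold to at least 6.14-fold, and 3 were lower, Plxna3, Efnb3 and Sema4b. Several of these calls lie near the detection limit. Rspo1, Smad4, Dcc and Ephb2 had S/N of at most 4.7 on B16-RIIL, and Apc, Fstl1, Hes1 and Efnb3 at most 4.3 on B16.

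Of 53 cytosolic ribosomal proteins 0 were higher and 0 lower, with a median of -0.08 that reached 0.30 under another scaling, so no ribosomal gene was past 2-fold. Of 58 cell cycle and replication genes 3 were higher and 3 lower, with a median of 0.07. Cdkn1c, a cell cycle inhibitor, had 2.19 on B16, 1.25 on B16-RI, 1.42 on B16-RII and 6.4 on B16-RIIL, 2.14-fold higher, and Cdkn1b and Pola1 were higher from below detection. Cdk2, Cdk6 and Cdkn2c were lower, Cdk6 by 2.43-fold on both arrays. Of 41 p53 targets and apoptosis genes 2 were higher, among them Birc3 by at least 5.36-fold, and 2 were lower, Btg2 by 2.23-fold and Gadd45a by 2.15-fold, with 20.3 on B16 and 9.34 on B16-RIIL. Of 15 histone genes 0 were higher and 2 lower, H1f5 and Macroh2a1. Of 58 genes of the heat shock, unfolded protein and ATF4 responses 4 were higher and 3 lower, among them Fgf21 and Slc7a11 higher and Ern1, a stress sensor of the endoplasmic reticulum, at least 5.66-fold lower. Of 34 metastasis suppressors and tetraspanins 2 were higher, S100a6 by 3.33-fold with 2.33 on B16 and 10.6 on B16-RIIL and Tspan33 by at least 3.89-fold, and 1, Cd9, was lower.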

How the data were processed

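RNA of each line was hybridised to 1-colour Applied Biosystems Mouse Genome Survey arrays. The authors deposited a raw and a normalized signal (intensity), a signal-to-noise score and a flag score for each probe. The methods name quantile normalization, but the deposited normalized intensity of 33012 of 33012 probes equals the raw signal divided by 1 of 2 constants per array, one for each of 2 probe sets, within 0.006 plus 0.02%. The table has 65 columns, of which 16 were used. The 20 columns of second arrays match no sample label, the 20 ratio columns hold the authors' own comparisons, and these were left out, as were 4 log2 columns.

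Differences are log2 of the normalized signal, B16-RIIL minus B16, centred on the median of each probe set over probes detected on both arrays, with shifts of 0.45 and -0.01. Symbols were matched to RefSeq for 16153 probes and accessions for 24, of 17302 probes with a symbol, and each gene was represented by the probe of highest mean signal. Named genes are the 15 with the largest difference in each direction among genes detected on both arrays, the 10 in each direction detected on 1 array with S/N of at least 10, and list members past 2-fold. Alternatives were the deposited values, other centrings and scalings of the raw signal, quantile normalization, lowess, other detection rules and other fold limits. The number of arrays used, 1 per line, limits the precision, and no p-value was computed. The rule was tried on simulated data with changes planted only in probes of strong signal, so the simulation does not bear on calls of dim genes. Python 3.11.15, numpy 2.4.6, pandas 2.3.3, statsmodels 0.14.6 and matplotlib 3.10.9 were used. The gene lists and the comparison were chosen with earlier results of these data known. A few genes are not reported here by name.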

Additional observations from a re-analysis of the deposited data

How the results depend on the processing

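The 215 named genes all had a difference of at least 2-fold, more than a scaling moves a value, so their unchanged direction under the other scalings is no sign of stability. Of their 1505 values 1165 moved by less than 0.38 log2, the SD of a probe, while 340 moved by more. Of 238 list medians 229 moved by less than that. Counts depended more on the settings. Genes higher in B16-RIIL numbered 1046 in the deposited values without centring, 1125 under median scaling, 171 with detection required on both arrays, 410 at S/N of at least 5, 974 without a detection filter, 180 at 4-fold and 1334 at 1.5-fold. Genes lower numbered 161, 311, 1716, 190 and 1152 in the last 5 of these settings. Probes higher numbered 2264 under median scaling and 268, 777, 2333, 355 and 2682 in those 5, and probes lower 363, 765, 4839, 527 and 2833. Fewer genes entered under the stricter detection rules, and the cause of the other changes was not tested. No replicate was left out, because 1 labelled array per line was used. No paired analysis was possible because the columns of the second arrays carry no sample label and were not used. Dim genes near the detection limit made up most of the calls.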
